A study of Mus musculus with 6 samples.

Results

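MHC class II presentation genes encode the proteins with which antigen-presenting cells show peptides from swallowed material to CD4+ T cells. The 8 genes described here are Cd74, H2-Aa, H2-Ab1, H2-Eb1, H2-DMa, Ciita, Cd86 and Cd80. They were found by their symbol in GEO's annotation of the array, which gave 20 probe sets (sets of short oligonucleotides that read 1 transcript region each) of the 45037 tested. Each of the 20 probe sets is assigned to 1 gene, and 0 of them name several genes.

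The retinas were those of albino mice of the inbred strain BALB/c, and their RNA was measured on 6 Affymetrix arrays. The light damaged group (3 arrays) was kept in the dark for 1 week and then exposed for 6 h to white fluorescent light of 6000 lux, and its retinas were taken 24 h later. The dark adapted group (3 arrays) had the same week of darkness and no bright light. Age, sex and the number of animals behind each array are not stated, and no label says that the 3 arrays of a group are separate animals. The spread behind each p-value is therefore that of the arrays and may be technical.

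Class II molecules are pairs of an alpha and a beta chain, in the mouse I-A (H2-Aa with H2-Ab1) and I-E (H2-Ea with H2-Eb1). The invariant chain Cd74 fills their groove and guides them to endosomes, where H2-DM exchanges its remnant for peptide. Ciita is the master coactivator of class II genes and is induced by interferon gamma, while Cd80 and Cd86 on the same cell give the T cell its second signal through Cd28. In healthy retina class II protein is scarce and is known mainly from a few microglia, perivascular cells and dendritic cells.

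After light damage none of the 8 genes passed the test. Of the 20 probe sets 0 passed limma's test at an adjusted p under 0.05, in either direction, against 1.02% of all probe sets. At an unadjusted p under 0.05 the count was 1 of 20, against 8.73% of all probe sets. The median change, light damaged minus dark adapted, was 0.07 on the log2 scale for the 20 probe sets and 0.01 for all probe sets, and 11 of the 20 changes were positive. The lowest adjusted p among the 20 was 0.504, and 0.215 with equal replicate numbers treated as pairs, a fit that called 0 of the 20 and 4.68% of all probe sets. The largest change in size was that of a Cd80 probe set, which is described below.

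The precision was enough to bound the changes, but small changes would mostly not pass the test. On simulated data the fit recovered 32% of changes of 1 and 0% of changes of 0.5 on the log2 scale. All 20 of the 95% intervals (each without adjustment for the number of probe sets) ended below a rise of 1 on the log2 scale, which is 2-fold, and the highest upper bound was 0.90, or 1.87-fold. The standard error of the members had a median of 0.16, the same as over all probe sets (0.16). These bounds hold on the RMA scale, which compresses changes of dim probe sets, and many members were dim. Of the 20 probe sets 6 lay below the array's lower quartile on all 6 arrays and 4 on some of them, while 2 lay above the array's median on all 6.

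**Figure D1:**
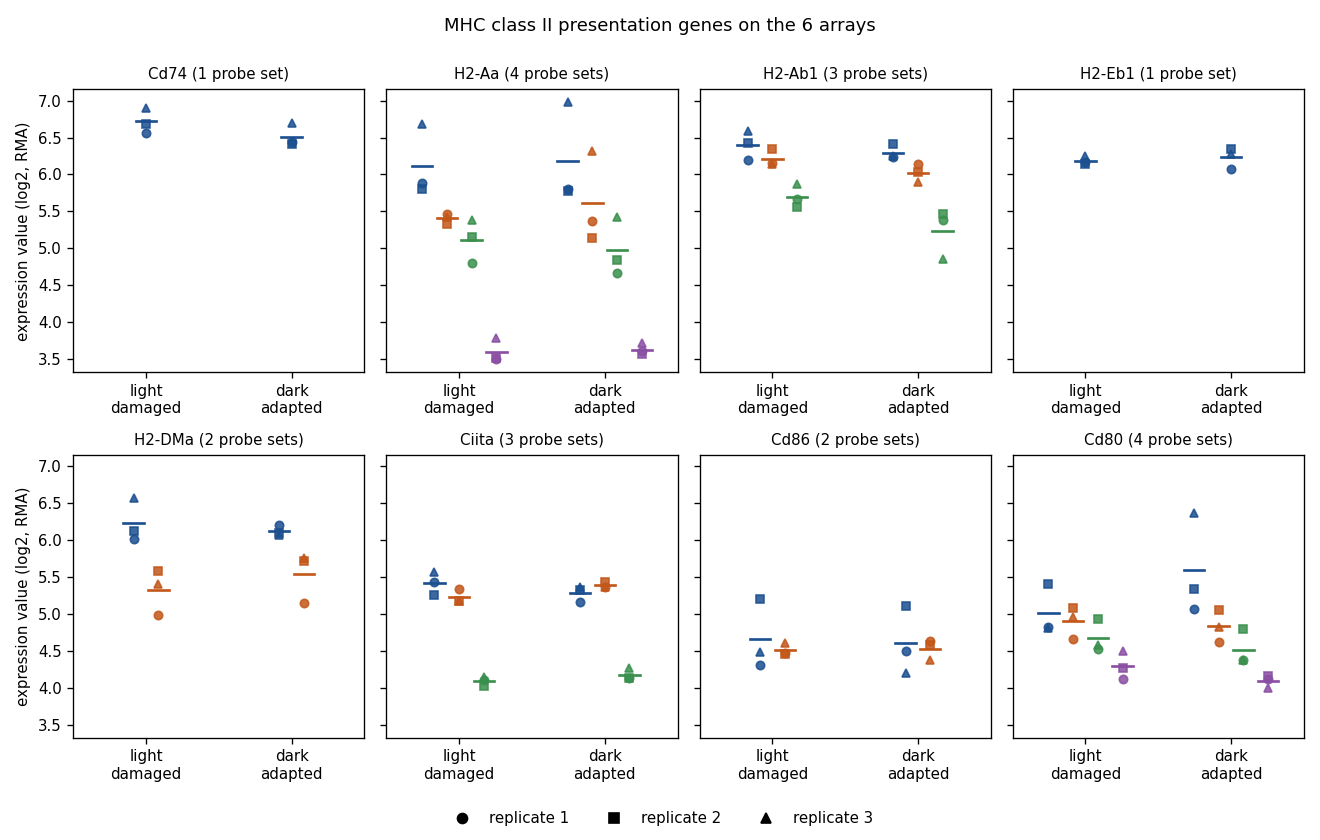
Expression values (log2, RMA) of every probe set of the 8 genes in light damaged and dark adapted retinas, with a colour for each probe set of a gene, a marker shape for each replicate number and a bar for the mean of 3 arrays. The groups overlap in 18 of the 20 probe sets. Replicate 3 of both groups stands high in the brightest H2-Aa probe set, and dark adapted replicate 3 alone in another H2-Aa and in 1 Cd80 probe set.

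Of the members 4 of 8, and of the listed class I genes 9 of 10, had a promoter window in the table used. The windows of 2 members and of 2 class I genes are shown as examples because 8 of 9 class I genes rose in the same retinas (described further on) while 0 of the class II genes passed the test. Each run is RefSeq sequence of the build GRCm38.p6, from 250 bases before to 50 after a transcript start. It comes from C57BL/6J mice, whose H2 haplotype differs from that of BALB/c. Capitals mark matches, on either strand, to GATTGG, the X box pattern, TTTCNNTT and the kappaB-type site. GATTGG is the core of the Y box bound by NF-Y and reads CCAATC on the other strand. The X box pattern is modelled on the site bound by the RFX complex, and TTTCNNTT on sites of interferon regulatory factors. The kappaB-type site is nearly a palindrome and is bound by NF-kappaB. H2-Aa lies at chr17:34287774-34288073 on the minus strand, H2-Eb1 at chr17:34305617-34305916 on the plus strand, H2-K1 (the second of its windows) at chr17:34000284-34000583 on the minus strand and B2m at chr2:122147437-122147736 on the plus strand.
H2-Aa: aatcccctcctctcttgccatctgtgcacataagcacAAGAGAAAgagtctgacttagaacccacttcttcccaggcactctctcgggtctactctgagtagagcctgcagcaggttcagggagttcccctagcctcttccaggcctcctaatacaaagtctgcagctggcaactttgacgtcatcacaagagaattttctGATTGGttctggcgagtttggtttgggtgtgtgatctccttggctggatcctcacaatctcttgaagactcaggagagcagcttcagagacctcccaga
H2-Eb1: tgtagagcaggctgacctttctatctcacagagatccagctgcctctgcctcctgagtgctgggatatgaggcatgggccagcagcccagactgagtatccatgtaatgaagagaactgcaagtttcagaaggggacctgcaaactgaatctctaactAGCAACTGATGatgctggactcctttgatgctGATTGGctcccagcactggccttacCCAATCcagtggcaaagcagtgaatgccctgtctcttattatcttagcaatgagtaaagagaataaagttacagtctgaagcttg
H2-K1: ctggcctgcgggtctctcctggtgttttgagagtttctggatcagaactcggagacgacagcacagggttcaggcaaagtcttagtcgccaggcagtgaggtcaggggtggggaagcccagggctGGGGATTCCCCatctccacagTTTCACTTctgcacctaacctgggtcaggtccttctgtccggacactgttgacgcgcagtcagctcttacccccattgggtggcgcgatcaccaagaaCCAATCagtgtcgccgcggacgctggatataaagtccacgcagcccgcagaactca
B2m: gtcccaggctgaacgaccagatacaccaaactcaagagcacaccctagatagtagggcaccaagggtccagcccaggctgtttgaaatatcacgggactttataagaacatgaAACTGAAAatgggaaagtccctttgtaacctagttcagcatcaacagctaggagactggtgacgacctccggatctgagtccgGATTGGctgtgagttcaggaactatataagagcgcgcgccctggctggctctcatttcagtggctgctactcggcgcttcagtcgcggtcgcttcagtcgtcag

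In the H2-Eb1 window the X box pattern began at base -92 and GATTGG at base -60, with a further match on the other strand at -35. The H2-Aa window held GATTGG at -49, a match to TTTCNNTT on the other strand at -213 and no match to the X box pattern. In H2-K1 the kappaB-type site began at -125, TTTCACTT at -104 and CCAATC at -6, and in B2m the match to TTTCNNTT lay at -137 and GATTGG at -54. None of these matches overlaps another. Over the 32851 promoter windows of this length the share with a match was 16.1% for GATTGG, 0.298% for the X box pattern, 23.9% for TTTCNNTT and 0.0304% for the kappaB-type site. Of the windows not shown, those of Tapbp and Psmb8, which rose, held 0 matches, that of Tap1 held 1 match to GATTGG alone, and the windows of H2-DMa and Cd80 held no X box pattern. These are letter matches in a reference sequence and are no measure of binding. A window without a match can still hold a site whose letters differ from the pattern.

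Cd74, the invariant chain, is read by 1 probe set (1425519_a_at). Its values were 6.56, 6.68 and 6.90 in light damaged retinas, against 6.43, 6.41 and 6.69 in dark adapted retinas. The groups overlapped, because dark adapted replicate 3 lay above both light damaged replicates 1 and 2. The change was 0.21 ± 0.15 (SE), a 1.15-fold difference with a 95% interval from -0.13 to 0.54 (limma adjusted p = 0.847). Within the same-numbered arrays the differences were 0.13, 0.27 and 0.21. They were all of 1 sign, as were the positive ones of 23.1% of all probe sets, and with the pairing the adjusted p was 0.317.

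H2-Aa, the I-A alpha chain, is read by 4 probe sets. The brightest (1438858_x_at) had 5.88, 5.80 and 6.68 in light damaged retinas and 5.80, 5.78 and 6.98 in dark adapted retinas. In both groups replicate 3 was well above the others, and the groups overlapped. The change was -0.06 ± 0.37 (SE), with an interval from -0.92 to 0.79. The probe set 1435290_x_at had 5.47, 5.33 and 5.42 in light damaged retinas and 5.38, 5.14 and 6.32 in dark adapted retinas, a change of -0.21 ± 0.28 (SE). Here dark adapted replicate 3 alone was high. The other 2 probe sets had changes of 0.14 and -0.03, and the dimmer (1443783_x_at) reached at most 3.79. In both of these replicate 3 was the highest array of each group. Without dark adapted replicate 3 the brightest gave 0.33 and 1435290_x_at gave 0.15, against -0.06 and -0.21 with it, and neither passed (limma adjusted p = 1.00 for each). Probe sets ending in _x_at or _s_at can also bind other transcripts, and all 4 of H2-Aa are of these kinds.

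H2-Ab1, the I-A beta chain and partner of H2-Aa, had 3 probe sets with positive changes. The brightest (1451721_a_at) had 6.19, 6.42 and 6.58 in light damaged retinas and 6.24, 6.41 and 6.25 in dark adapted retinas, a change of 0.10 ± 0.14 (SE). The probe set 1450648_s_at had a change of 0.19 ± 0.13 (SE). In both the groups overlapped. The dimmest, 1425477_x_at, had 5.66, 5.56 and 5.87 in light damaged retinas and 5.38, 5.46 and 4.85 in dark adapted retinas, without overlap. It gave the single unadjusted p under 0.05 among the members (limma adjusted p = 0.504), with a change of 0.47 ± 0.19 (SE), or 1.38-fold. Without dark adapted replicate 3, the lowest of its arrays, this change was 0.28 (limma adjusted p = 0.772).

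H2-Eb1, the I-E beta chain, is read by 1 probe set, and its groups overlapped. That probe set (1417025_at) had 6.17, 6.14 and 6.25 in light damaged retinas and 6.07, 6.35 and 6.28 in dark adapted retinas. The light damaged values lay inside the dark adapted range. The change was -0.05 ± 0.13 (SE), with an interval from -0.34 to 0.25.

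H2-DMa encodes the alpha chain of H2-DM, the peptide editor of the endosome. Its brighter probe set (1422527_at) had 6.01, 6.12 and 6.56 in light damaged retinas and 6.20, 6.09 and 6.07 in dark adapted retinas. Light damaged replicate 3 was the only array that stood above the rest. The change was 0.11 ± 0.17 (SE), and -0.06 without that array. The other probe set (1459872_x_at) had 4.99, 5.58 and 5.40 in light damaged retinas and 5.14, 5.71 and 5.75 in dark adapted retinas, a change of -0.21 ± 0.22 (SE). The 2 probe sets of this gene did not follow each other over the 6 arrays (r = -0.03, a description without a test).

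Ciita, on which class II transcription depends, had 3 probe sets, none of which passed. The probe set 1421210_at had 5.43, 5.26 and 5.56 in light damaged retinas and 5.17, 5.32 and 5.36 in dark adapted retinas, with a change of 0.13 ± 0.13 (SE). The probe set 1421211_a_at had 5.33, 5.17 and 5.17 in light damaged retinas and 5.37, 5.43 and 5.36 in dark adapted retinas. In this one the light damaged values were all lower, without overlap, and the change was -0.16 ± 0.12 (SE, limma adjusted p = 0.854). It and the H2-Ab1 probe set above are the 2 of 20 members whose groups did not overlap, against 13.2% of all probe sets. Of all probe sets 8.99% lay higher without overlap and 4.21% lower. The third Ciita probe set (1447075_at) lay below the lower quartile on all arrays and had a change of -0.08. The upper bounds of the 3 intervals were 0.44, 0.11 and 0.19.

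The costimulatory ligands Cd86 and Cd80 were dim. The probe set 1449858_at of Cd86 had 4.31, 5.19 and 4.49 in light damaged retinas and 4.49, 5.11 and 4.19 in dark adapted retinas. Replicate 2 was the highest array in both groups, and the change was 0.07 ± 0.30 (SE). The other Cd86 probe set (1420404_at) had a change of -0.02 ± 0.13 (SE), below the lower quartile on all arrays. Of the 4 Cd80 probe sets the brightest (1451950_a_at) had 4.82, 5.40 and 4.81 in light damaged retinas and 5.06, 5.34 and 6.37 in dark adapted retinas. This was the largest change among the 20 probe sets, -0.58 ± 0.34 (SE, limma adjusted p = 0.776), and the single interval that reached past a 2-fold change in either direction (-1.36 to 0.20). Without dark adapted replicate 3 it was -0.19. The other 3 Cd80 probe sets lay below the lower quartile on all 6 arrays and had changes of 0.07, 0.16 and 0.20.

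Single arrays held many of the highest values. Dark adapted replicate 3 held the highest of the 6 values in 6 of the 20 probe sets and light damaged replicate 3 in 7, against 0 for light damaged replicate 1 and 1 for dark adapted replicate 1. This was not counted over all probe sets, and probe sets of the same gene are not separate observations. The H2-Aa probe sets correlated positively with each other over the 6 arrays, with Pearson r between 0.44 and 0.86. The most negative r between probe sets of the same gene was -0.61, for Cd80 1451950_a_at with 1427717_at. In Ciita r was -0.38, 0.25 and 0.42. In the same-numbered arrays the difference was positive in all 3 pairs for 5 of the 20 probe sets and negative in all 3 for 3, against 23.1% and 18.8% of all probe sets. The genes most like Cd74 over the 6 arrays were Eif2b3 (r = 0.995), Msr1, a macrophage scavenger receptor (r = 0.984), Mxra8 (r = 0.984), Lamtor1 (r = 0.982) and Mettl22 (r = 0.981). These are descriptions over 6 arrays that share groups and pairing, and 81 of the 8868 genes ranked had r over 0.9.

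The remaining genes of the class II route were compared with 1 probe set a gene, the brightest, adjusted over 18193 genes, of which 2.01% passed (1.74% rose and 0.269% fell). With the pairing 8.87% passed. Of 5 further class II chains and editors 0 passed, and 0 had an unadjusted p under 0.05 in limma, with a median change of -0.06 against 0.03 over all genes. H2-Ea, the partner of H2-Eb1, had 7.74, 8.66 and 7.78 in light damaged retinas and 7.78, 8.48 and 8.76 in dark adapted retinas (change -0.28 ± 0.31, SE). H2-DMb2 and H2-Oa, subunits of the peptide editor and of its inhibitor, had changes of -0.17 and -0.06 and did not pass. Of the 7 genes of the transcription machinery that binds class II promoters, 0 passed and 0 had an unadjusted p under 0.05 in limma. Rfxank, Creb1 and Rfxap, parts of the promoter complex, had changes of 0.23, 0.32 and 0.16. The 6 probe sets of Creb1 ran from -0.95 to 0.40.

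On the interferon gamma route to Ciita 0 of 9 genes passed, while 3 had an unadjusted p under 0.05 in limma, all 9 changes were positive and the median was 0.28. Over all genes 2002 of 18193 had an unadjusted p under 0.05 and 10378 had a positive change. With centring on reference genes 3 of the 9 changes were positive and the median was -0.11, against -0.36 over all genes. Irf1, a transcription factor that acts on the interferon-responsive promoter of Ciita, had 9.15, 9.33 and 9.04 in light damaged retinas and 8.29, 8.71 and 8.45 in dark adapted retinas. The groups did not overlap, and the change was 0.69 ± 0.15 (SE, limma adjusted p = 0.0732). Irf8, a factor of myeloid cells, and Irf2 had changes of 0.79 and 0.45. With the pairing 3 of the 9 rose, which were Irf1, Irf2 and Irf8 (limma adjusted p = 0.00460, 0.0424 and 0.0243). Ifng itself lay below the lower quartile on all 6 arrays and had a change of 0.03.

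Of 8 genes of endosomal antigen processing 1 rose and 7 did not pass, with a median of 0.35. With centring on reference genes 0 passed, 4 of the 8 changes were positive and the median was -0.04. Ctsl, a cathepsin that degrades the invariant chain in some cells, had 11.27, 11.24 and 11.68 in light damaged retinas and 10.47, 10.68 and 10.65 in dark adapted retinas, a rise of 0.80 ± 0.16 (SE, limma adjusted p = 0.0468). This call was also lost with a variance trend, with quantile normalization again and with centring on reference genes, and when any 1 of the 6 arrays was left out (limma adjusted p from 0.0865 to 0.158), and another Ctsl probe set gave -0.18. Ifi30, an endosomal thiol reductase, and Ctsb had changes of 0.69 and 0.58, and the 5 probe sets of Ctsb ran from -0.03 to 0.75. Ctss, the cathepsin of invariant chain cleavage in microglia and dendritic cells, had 0.25. With the pairing 4 of the 8 rose, which were Ctsl, Ifi30, Ctsb and Ctsd (limma adjusted p = 0.00335, 0.0163, 0.0111 and 0.0336).

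Of 8 other costimulatory and inhibitory genes 1 rose and 7 did not pass, with a median of 0.03. Cd274, the inhibitory ligand PD-L1, had 6.78, 6.92 and 7.48 in light damaged retinas and 5.72, 5.72 and 5.99 in dark adapted retinas. The groups did not overlap, and the rise was 1.25 ± 0.20 (SE), or 2.38-fold (limma adjusted p = 0.0180). It did not pass without light damaged replicate 2 (limma adjusted p = 0.0598) or without dark adapted replicate 2 (0.0882), nor with centring on reference genes. Cd40, which receives help from T cells, and Vtcn1 had changes of 0.29 and 0.16, and Vtcn1 lay below the lower quartile on all arrays.

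MHC class I presents peptides from inside the cell to CD8+ T cells. Of 9 measured genes 8 rose, 0 fell and 1 did not pass (Tap2, 0.79, limma adjusted p = 0.0695), and their median was 1.56. B2m, the light chain of class I, had 10.55, 11.07 and 10.28 in light damaged retinas and 8.73, 8.65 and 8.39 in dark adapted retinas, a rise of 2.04 ± 0.21 (SE). H2-K1, a heavy chain, rose by 1.63 ± 0.13 (SE) and the immunoproteasome subunit gene Psmb8 by 1.88 ± 0.19 (SE). Tap1, the peptide transporter, and its partner Tapbp rose by 2.12 and 1.56, and H2-D1, Psmb9 and Psme1 by 1.50, 1.23 and 0.92. With 1 probe set a gene, the intervals of H2-K1 and B2m began at 1.34 and 1.56, above the upper bounds of the 20 class II probe sets. Another H2-K1 probe set had a change of 0.33, inside the range of those bounds, and the difference between the lists was not tested.

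The class I rises differed in firmness. With the pairing 9 of 9 rose, and without light damaged replicate 2, or with centring on reference genes, the count was 5. H2-D1, Psmb9 and Psme1 lost the call with 1 array left out (limma adjusted p up to 0.0984, 0.0678 and 0.0779). Other probe sets of H2-K1, H2-D1, Tap1 and Psmb8 gave changes down to 0.33, -0.02, -0.22 and 0.22, and the signals of class I heavy chains are uncertain because these genes are near-identical to each other.

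**Figure D2:**
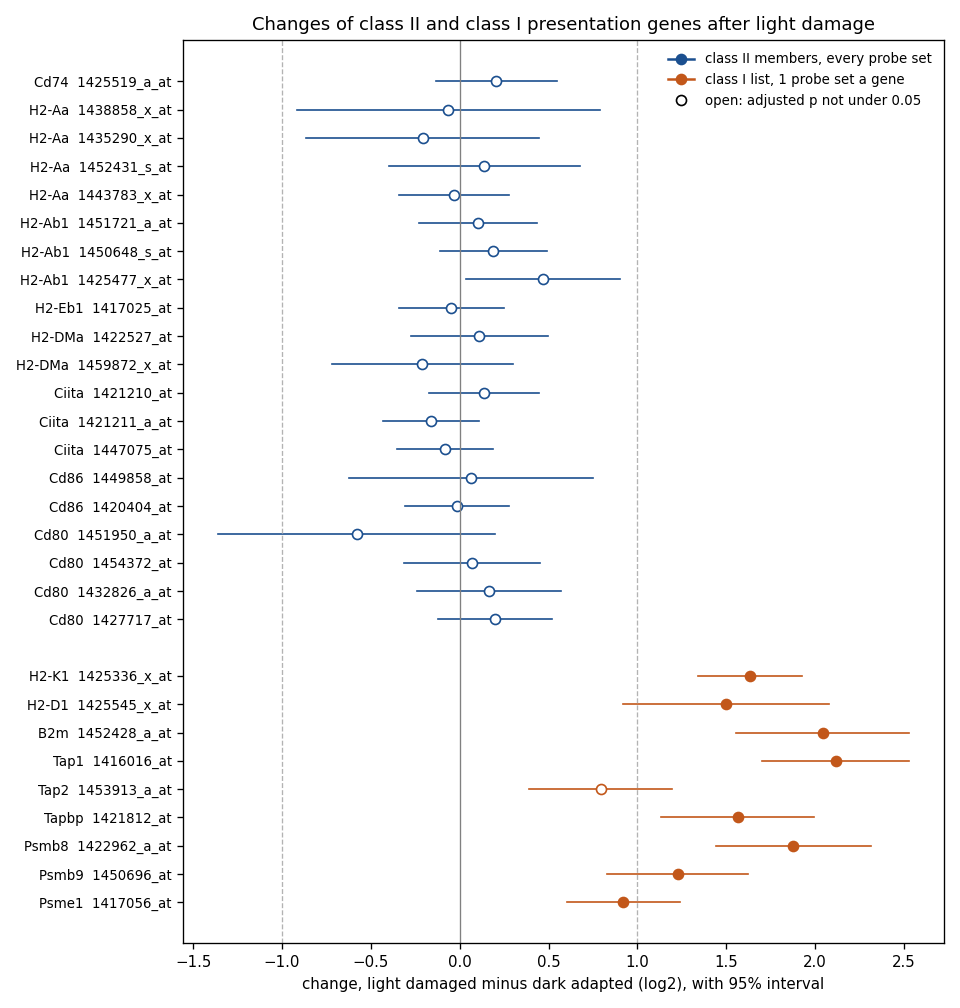
Change between light damaged and dark adapted retinas (log2) with its 95% interval for the 20 class II probe sets and, below, for 9 class I genes with 1 probe set a gene; filled points passed the test and dashed lines mark 2-fold changes. No class II probe set passed and all upper bounds stay under 0.91, while 8 of the 9 class I genes passed.

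The retinal origin of the RNA was plain from photoreceptor genes such as Sag, which lay between 13.21 and 13.57 on all arrays. Of 10 retinal neuron markers 0 rose and 2 fell, the cone opsin gene Opn1sw (-1.62) and Nrl, a rod transcription factor gene (-1.04). Nrl did not pass in 4 of the 6 fits with 1 array left out (without light damaged replicates 2 or 3 or dark adapted replicates 1 or 2, limma adjusted p = 0.158, 0.192, 0.0653 and 0.135). The count that fell was 1 with a variance trend, 5 with the pairing, 4 with centring on reference genes and 4 with quantile normalization again. Of 6 markers of Müller glia and astrocytes 2 rose, the filament genes Vim (1.67) and Gfap (1.75), and the brightest, Glul, had -0.99 (limma adjusted p = 0.0652). With the pairing 3 of these 6 rose and 2 fell, as Slc1a3 (0.66), Glul and Rlbp1 (-0.50) also passed (limma adjusted p = 0.00642, 0.000775 and 0.0329). In whole retina a change in the number of presenting cells and in RNA per cell cannot be told apart. The markers of such cells are therefore given as measured, with sums of linear values (2 to the power of the log2 value) over each list.

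Of 11 microglia markers 2 rose and 0 fell, with a median change of 0.11 against 0.03 over all genes. Their summed level ranged from 1237 to 1401 in light damaged retinas and from 1003 to 1060 in dark adapted retinas. Cd68, a lysosomal protein of phagocytes, rose by 1.88 ± 0.22 (SE) and the complement gene C1qc by 1.27. The other 9 did not pass, with changes from -0.48 to 1.21, and the brightest, Csf1r, had -0.25. With the pairing 3 rose and 1 fell, as C1qa (1.21, limma adjusted p = 0.000428) and P2ry12 (-0.48, 0.0199) also passed. C1qc lost the call without any 1 array other than dark adapted replicate 1 (limma adjusted p up to 0.113). With centring on reference genes 2 markers rose and 1 fell, and 4 of the 11 changes were positive, against 9 without it.

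Of 7 monocyte and macrophage markers Lyz2 (lysozyme) rose by 1.30 and Cd14 by 0.84, and 5 did not pass. The summed level ranged from 954.0 to 1158 in light damaged retinas and from 736.2 to 1375 in dark adapted retinas. Such a sum follows its brightest member, and most of the highest value came from Ccr2 on dark adapted replicate 3 (9.76 on the log2 scale). With centring on reference genes 0 of the 7 passed. Cd14 lost the call without light damaged replicates 2 or 3 or dark adapted replicate 2 (limma adjusted p = 0.0837, 0.0753 and 0.0761).

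Markers of professional presenting cells and lymphocytes did not pass. Of 7 dendritic cell, 4 B cell and 5 T cell markers 0 passed, and 0 in each list had an unadjusted p under 0.05 in limma, with median changes of -0.02, -0.10 and -0.18. Their summed levels were 475.3 to 547.8, 159.4 to 197.2 and 395.0 to 483.3 in light damaged retinas. In dark adapted retinas they were 499.7 to 604.8, 173.0 to 210.8 and 413.0 to 564.8. Flt3, Cd79a, Pax5, Cd3g and Cd3e, which mark these cells, had changes of -0.27, -0.18, -0.14, -0.25 and -0.07. Positive changes numbered 2 in the dendritic cell list (up to 0.16), 1 in the B cell list (0.12) and 0 in the T cell list. In every H2-Aa probe set dark adapted replicate 3 was the highest dark adapted array. Light damaged replicate 3 was the highest light damaged array in every one but 1435290_x_at. On dark adapted replicate 3 the T cell list averaged 6.55, against 6.14 and 6.34 on dark adapted replicates 1 and 2. The monocyte and macrophage list averaged 6.84 there, against 6.50 and 6.69, and the dendritic cell list 5.99, against 5.81 and 5.97. The B cell list averaged 5.46 there, against 5.37 and 5.62, and the microglia list 5.98, against 6.13 and 6.18. On light damaged replicates 1, 2 and 3 the T cell list averaged 6.06, 6.25 and 6.28. The monocyte and macrophage list averaged 6.81, 6.99 and 6.93 on them, and the dendritic cell list 5.78, 5.87 and 5.99. The B cell list averaged 5.26, 5.50 and 5.48 on them, and the microglia list 6.54, 6.57 and 6.43. The part of these cells in the H2-Aa value was not tested.

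**Figure D3:**
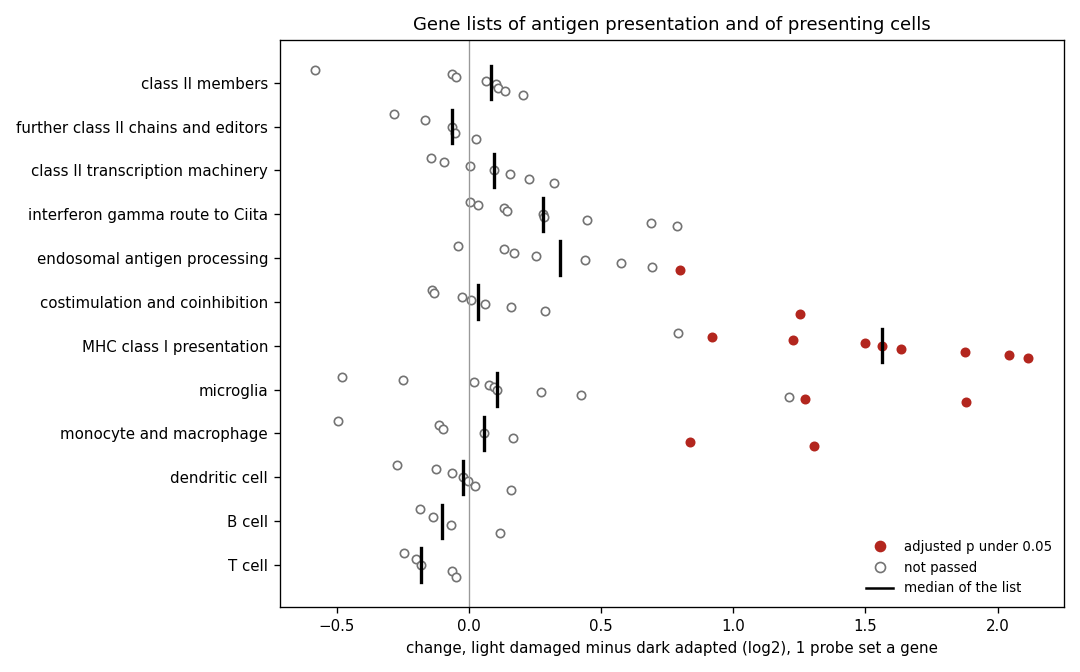
Change between light damaged and dark adapted retinas (log2) of each gene, by list, with 1 probe set a gene; filled red points passed the test and the black line is the median of the list. The medians of the class II members, the further class II genes and the dendritic, B and T cell markers lie between -0.18 and 0.08, and the class I list is shifted to a median of 1.56.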

How the data were processed

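Total RNA of retinas was measured on 6 arrays, 3 light damaged and 3 dark adapted, grouped by their titles. RMA, which corrects background, quantile normalizes and summarises each probe set, is named in the submitters' processing notes, with no version. The values the authors deposited, from 3.30 to 13.89, were judged to be log2 from this range. Of 45101 probe sets 64 were controls and were left out. Names came from GEO's platform annotation and RefSeq (GRCm38.p6).

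Groups were compared with limma 3.58.1 (lmFit, eBayes) in R 4.3.3 over all 45037 probe sets, with Benjamini-Hochberg adjustment and a threshold of 0.05. List genes were compared in the same way with the brightest probe set assigned to a gene alone (18193 genes), and 116 of 129 listed genes were analysed. The fit was tested on simulated data. It recovered 0% of changes of 0.5 on the log2 scale, 32% of 1, 94% of 2 and 98% of 3.

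Equal replicate numbers were taken as pairs because the deviations of same-numbered arrays from their group means correlated at 0.731, 0.618 and 0.432 (-0.48 to 0.00902 for others), a judgement made from these values, since no label says it. The replicate block was an alternative, with leaving out each array, quantile normalization again, centring on reference genes, a variance trend, a filter on dim probe sets, and means of probe sets.

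All 20 member probe sets were reported. Up to 3 genes of smallest p and all genes past the threshold were named per pathway list, and the gene of smallest p and the brightest per marker list. Members and lists were chosen with earlier results of these data known.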

Additional observations from a re-analysis of the deposited data

How the results depend on the processing

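Of the 20 member probe sets 0 passed under any alternative, and the lowest limma adjusted p among their 212 values was 0.100. That value belonged to Ciita 1421211_a_at with centring on reference genes, where its change was -0.55. The count over all probe sets, 458, was 2109 with the replicate block (1569 higher and 540 lower, against 411 and 47), 772 (190 higher and 582 lower) with arrays centred on 6 reference genes, 569 (402 higher and 167 lower) with quantile normalization again, and 128 to 380 with 1 array left out. The pathway genes called, 10 of 46, numbered 17 with the replicate block, 5 with centring and 5 to 9 with 1 array left out. Without light damaged replicates 1, 2 or 3 or dark adapted replicate 2 the count over all probe sets was 187, 165, 128 or 163, and without light damaged replicate 2 that of pathway genes was 5. The replicate block changed no other call than those given beside Irf1, Irf2, Irf8, Ctsb, Ctsd, Ifi30 and Tap2 in the pathway lists.

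Centring lowered the median change of all probe sets to -0.38, because the reference genes averaged 0.39 higher in light damaged retinas (median 0.25). Of these 6 genes Rplp0 itself rose, by 1.20 (limma adjusted p = 0.00441). Centring by construction turned positive member changes: Cd74 -0.18, H2-Aa 1452431_s_at -0.25, H2-Ab1 1451721_a_at -0.29 and 1450648_s_at -0.20, H2-DMa 1422527_at -0.28, Ciita 1421210_at -0.26, Cd86 1449858_at -0.32, and Cd80 1454372_at -0.32, 1432826_a_at -0.23 and 1427717_at -0.19. The members' median was then -0.32. In class I all 9 changes stayed positive, and 5 passed. Quantile normalization again turned Cd86 1420404_at to 0.017, and means of probe sets turned H2-DMa to -0.050 and Ciita to -0.036.

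With 1 array left out the sign turned in H2-Aa 1438858_x_at (-0.34 to 0.33), 1435290_x_at (-0.44 to 0.15), 1452431_s_at (-0.016 to 0.36) and 1443783_x_at (-0.13 to 0.019), H2-Eb1 (-0.13 to 0.010), H2-DMa 1422527_at (-0.058 to 0.22), Cd86 1449858_at (-0.20 to 0.32) and 1420404_at (-0.089 to 0.034), and Cd80 1454372_at (-0.034 to 0.19). The filter on dim probe sets left 8 members without a value. Detection calls were not used here, so no member is called absent.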

Other observations

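Light damaged replicate 3 was the highest light damaged array in every H2-Aa probe set but 1435290_x_at. Immune genes ran in both directions on dark adapted replicate 3, the highest dark adapted array in every H2-Aa probe set. Ccr2, a chemokine receptor of monocytes, had 7.96, 8.61 and 7.97 in light damaged retinas and 7.92, 8.34 and 9.76 in dark adapted retinas. Flt3 had 7.26, 7.24 and 7.51 in light damaged retinas and 7.34, 7.47 and 8.01 in dark adapted retinas. Mrc1, a receptor of macrophages, had 5.39, 5.76 and 5.18 in light damaged retinas and 5.15, 5.44 and 6.03 in dark adapted retinas. Other immune genes were lowest there among the dark adapted arrays. Fcgr1, an Fc receptor, had 6.69, 6.40 and 6.53 in light damaged retinas and 6.64, 6.70 and 6.11 in dark adapted retinas. C1qa, a complement gene, had 8.07, 7.56 and 7.50 in light damaged retinas and 7.04, 6.49 and 5.97 in dark adapted retinas. These 5 genes were chosen after their values were seen, and none passed the test (C1qa did with the pairing). Of 5 blood cell, 4 pigment epithelium and 5 vascular markers 0 passed. The blood cell list averaged 5.55 on dark adapted replicate 3 and between 5.09 and 5.32 on the other 5 arrays. Of the 5 genes of this list 3 lay below the lower quartile on all 6 arrays. Its genes of smallest p and highest level, Alas2 and Itga2b, had changes of -0.26 and 0.05, and those of the pigment epithelium and vascular lists, Ttr and Kdr, had 0.99 and 0.44. None of these 4 passed, while Ttr and Kdr did with the pairing (limma adjusted p = 0.0471 and 0.0318).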
